A study of Mus musculus with 6 samples.

Results

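Hox genes encode homeodomain transcription factors that give cells their position along the body axis. They were taken as every gene whose symbol is Hoxa, Hoxb, Hoxc or Hoxd followed by a number and which had a transcript cluster, the group of probes read together on the array, to itself. This gave 37 of the 19938 genes compared, each with 1 transcript cluster. Hoxb8 had only a cluster shared with another gene and was not measured. HBC and LBC (high and low binding cells) are immortalized cells of the stromal vascular fraction, taken from inguinal fat, a white depot, of male mice of the 129SVE strain. They were sorted again and again, up to passage 20, for strong or weak binding of FcsFNDC4, the soluble part of FNDC4 fused to an Fc tag. Both populations came from the same starting cells, were sorted on the same ligand and were grown in the same medium, and the study compared them to find candidate receptors for FNDC4. RNA from 3 technical replicates of each was measured on Affymetrix mouse gene arrays, 1 array per replicate, so each group is 1 sorted population and p-values measure the technical spread between arrays, not that between independent sorts. LBC replicates 2 and 3 carry HBC as their source name, against their titles, descriptions and phenotypes. Titles set the groups here, and where leaving out these 2 arrays takes a named gene past a threshold, its value without them is given.

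In mammals the Hox genes lie in 4 clusters, HoxA to HoxD, and genes with the same number in different clusters are paralogues that arose from one ancestor. Within a cluster, low numbers are switched on early and towards the head, high numbers later and towards the tail, and fibroblasts and preadipocytes keep much of this pattern in culture as a record of where they came from. Hox proteins bind DNA together with cofactors of the TALE class, PBX, MEIS and PKNOX, while Polycomb complexes keep the clusters silent and trithorax complexes keep them active. Inguinal and other subcutaneous fat is known for its HoxC genes of high number, Hoxc10 among them, which other fat depots lack or carry at a low level.

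Most Hox genes of the HoxA, HoxB and HoxC clusters read above dim signal in both populations, whereas most HoxD genes did not. A gene was taken as on in a population when each of its 3 arrays read above the 95th percentile of 1027 olfactory receptor genes, a family mostly silent outside the nose; this level lay between 102 and 121 intensity units on the 6 arrays. By this rule 23 of 37 Hox genes were on in both HBC and LBC, 1 in LBC only, none in HBC only and 13 in neither. Over all genes tested, 57.2% were on in both, so the share of Hox genes was close to that background. The HoxA genes on in both were Hoxa4, Hoxa5, Hoxa6, Hoxa7, Hoxa9 and Hoxa10, 6 of 10, an unbroken run in the middle of the cluster. Hoxa2 and Hoxa3, which pattern the hindbrain and the pharyngeal arches, and Hoxa11 and Hoxa13, which pattern the outer limb, were not on. Of these, Hoxa13 read above the level for dim signal on 3 of the 6 arrays. In HoxB, 8 of 9 genes were on in both, from Hoxb1 to Hoxb9, and Hoxb13 alone was not. In HoxC, 7 of 9 were on in both (Hoxc5, Hoxc6, Hoxc8, Hoxc9, Hoxc10, Hoxc12 and Hoxc13), Hoxc11 was not on, and Hoxc4 was the gene on in LBC only. In HoxD, 2 of 9 were on, Hoxd3 and Hoxd13, the latter a gene of the digits and the genital region.

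By number, all 8 measured genes of groups 5, 6 and 7 were on in both populations, 3 of 4 genes of group 9 and 2 of 3 of group 10. None of the 3 genes of group 11 was on. Hoxc4, on in LBC only, read 104, 109.9 and 116 on the HBC arrays and 123, 122 and 124 on the LBC arrays. Its LBC arrays lay above its HBC arrays, but the log2 fold change was -0.15 (limma adjusted p = 0.25), and 1 HBC array alone fell below the level for dim signal, so the gene sits at the edge of the rule. Intensities of different genes come from different probes, so no order of Hox genes by level is given. The rule separates bright from dim clusters and is no proof of transcription: Cdx1, a caudal-type homeobox gene known from the gut, and Evx1, a homeobox gene next to HoxA, also passed it, with mean intensities of 491 and 264 in HBC and 517 and 289.7 in LBC. The spans of 6 pairs of measured Hox genes overlap in RefSeq (Hoxa3 with Hoxa4, Hoxa5 and Hoxa6, Hoxb3 with Hoxb4, Hoxd3 with Hoxd4, Hoxd10 with Hoxd11), and whether probes of 1 member of a pair also read the other was not tested.

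**Figure D1:**
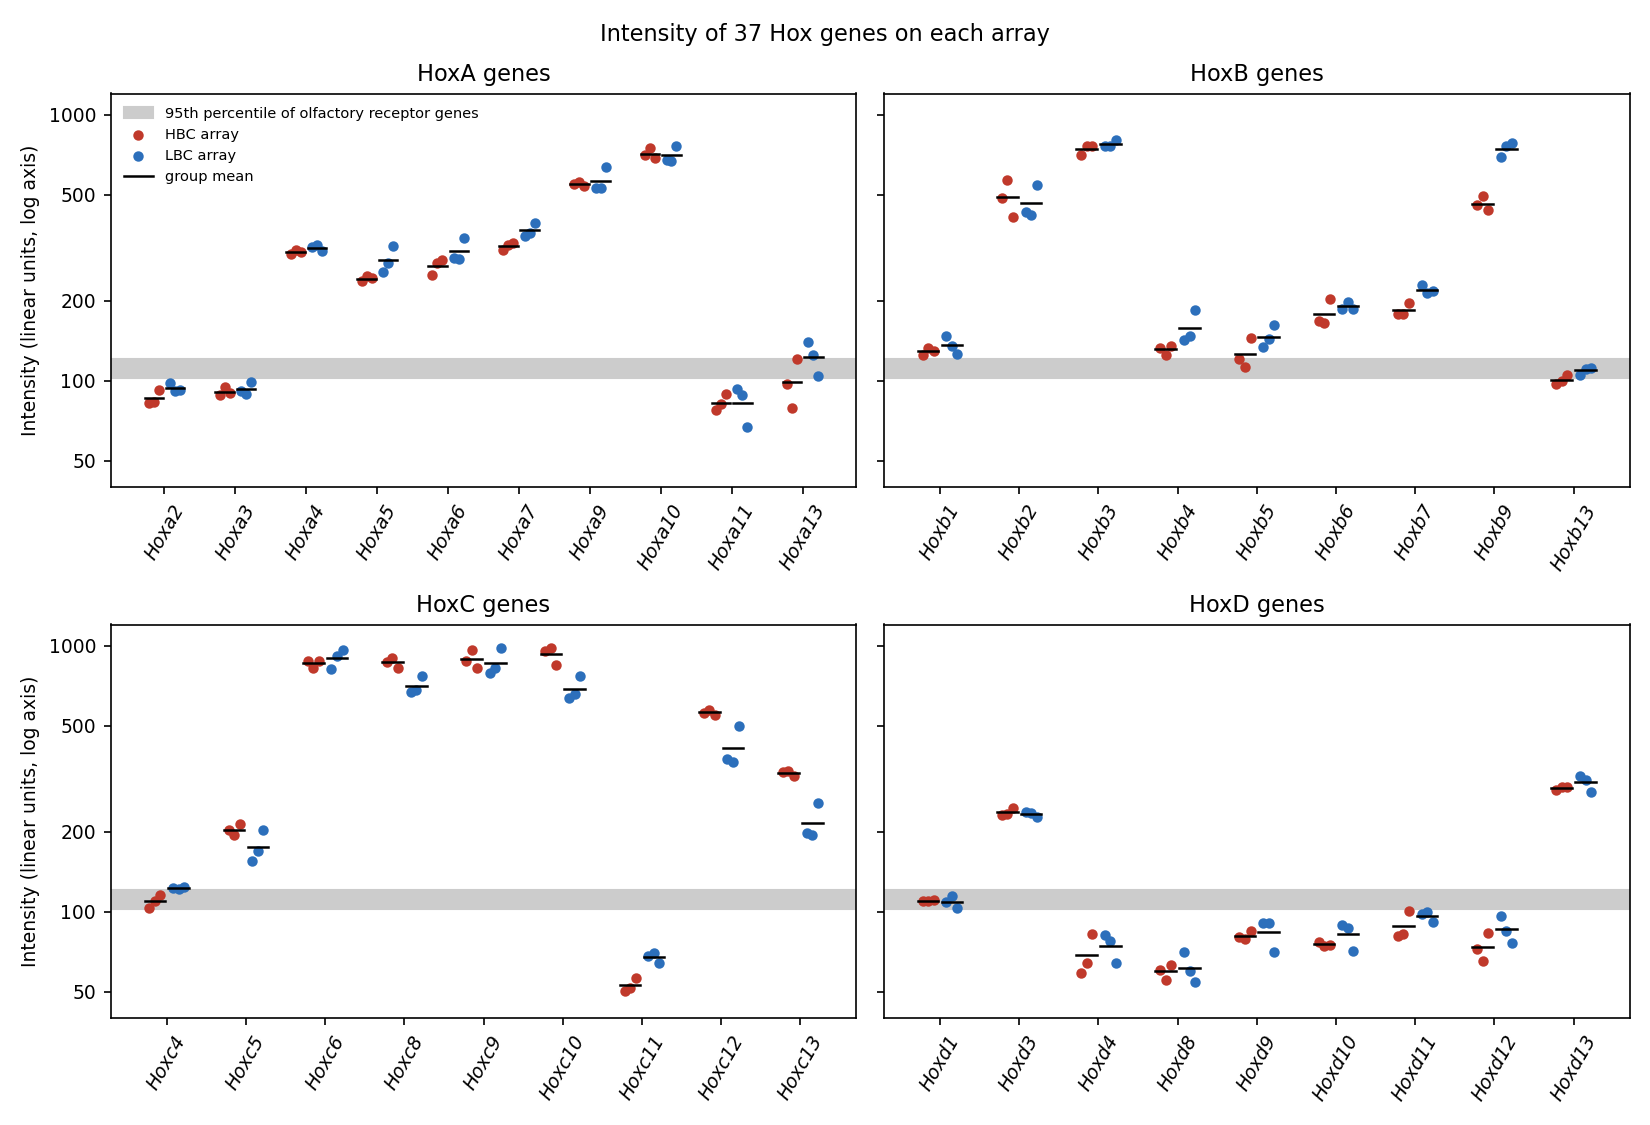
Intensity (linear units on a log axis) of 37 Hox genes on each of 6 arrays, in the order of their numbers within each cluster, HBC in red, LBC in blue, with a black line at each group's mean. The grey band spans the 95th percentile of olfactory receptor genes over the 6 arrays, from 102 to 121; most HoxA, HoxB and HoxC genes lie above it and 7 of 9 HoxD genes lie in it or below it.

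Promoter sequences were set beside the on and off states by their number of CpG, the sequence feature through which Polycomb and trithorax complexes are known to find many Hox promoters. RefSeq promoter sequences of GRCm38.p6, 250 bases before to 50 bases after the start, were at hand for 21 of the 37 genes, in 23 entries, which cover 9 of the 23 genes on in both populations and 11 of the 13 on in neither; Hoxb9 and the 7 HoxC genes on in both have no entry, so the comparison does not speak for them. The 10 entries of genes on in both populations held a median of 17 CpG (4 to 37), and the 12 entries of genes on in neither held a median of 17.5 (4 to 45), against a median of 7 over all 32851 promoters in the table. Paralogues of numbers 9 and 13 that differ in whether they are on are printed 5′ to 3′, with CpG in capitals. They were picked after their values were seen. Other such paralogues held 10 CpG in Hoxb1 (on in both) and 29 in Hoxd1 (on in neither), and 14 in Hoxb4 (on) and 4 in Hoxd4. Hoxd3 (on) and Hoxa3 held 20 each. The entries of Hoxa10 (on) held 21 and 12, and that of Hoxd10 held 22. For number 9, Hoxa9 was on in both populations (chr6:52227321-52227620, minus strand, 4 CpG) and Hoxd9 in neither (chr2:74697513-74697812, plus strand, 20 CpG). For number 13, Hoxd13 was on in both (chr2:74667975-74668274, plus strand, 37 CpG) and Hoxa13 in neither (chr6:52260831-52261130, minus strand, 45 CpG). Hoxa13 sat near the edge of the rule, since it read above the level for dim signal on 3 arrays, so it is no clear case of an off gene.
Hoxa9: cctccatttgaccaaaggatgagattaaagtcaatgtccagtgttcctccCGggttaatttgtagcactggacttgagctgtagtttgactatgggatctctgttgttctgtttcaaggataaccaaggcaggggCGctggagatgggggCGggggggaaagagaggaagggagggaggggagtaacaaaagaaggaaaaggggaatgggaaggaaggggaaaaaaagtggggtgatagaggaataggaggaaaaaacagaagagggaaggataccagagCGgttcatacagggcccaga
Hoxd9: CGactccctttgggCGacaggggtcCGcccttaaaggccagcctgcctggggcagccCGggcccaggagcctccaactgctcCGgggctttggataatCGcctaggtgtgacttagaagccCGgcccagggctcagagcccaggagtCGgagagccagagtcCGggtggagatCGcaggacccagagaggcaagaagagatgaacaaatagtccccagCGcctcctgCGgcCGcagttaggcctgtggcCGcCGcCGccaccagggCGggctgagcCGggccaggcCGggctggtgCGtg
Hoxd13: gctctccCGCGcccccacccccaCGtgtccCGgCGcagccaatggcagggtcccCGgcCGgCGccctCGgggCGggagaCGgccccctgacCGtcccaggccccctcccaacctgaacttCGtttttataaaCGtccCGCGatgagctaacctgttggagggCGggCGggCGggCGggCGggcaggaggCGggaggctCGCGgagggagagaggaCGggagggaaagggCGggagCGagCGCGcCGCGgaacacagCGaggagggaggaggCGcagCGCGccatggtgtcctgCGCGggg
Hoxa13: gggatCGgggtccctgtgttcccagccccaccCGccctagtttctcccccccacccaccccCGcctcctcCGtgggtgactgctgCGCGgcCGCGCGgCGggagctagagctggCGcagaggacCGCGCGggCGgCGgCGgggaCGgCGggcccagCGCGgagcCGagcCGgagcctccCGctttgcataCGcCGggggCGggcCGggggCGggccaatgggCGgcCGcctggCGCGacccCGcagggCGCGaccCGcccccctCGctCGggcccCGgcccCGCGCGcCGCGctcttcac
In the pair of number 9 the gene with fewer CpG was on, and of all promoters 68.6% hold at least the 4 CpG of Hoxa9 and 26.5% at least the 20 of Hoxd9. At number 13 both promoters were among the densest of the table, with 5.58% of all promoters reaching the 37 CpG of Hoxd13 and 1.93% the 45 of Hoxa13. The motif TGATNNAT, a form of the joint PBX and HOX site, was searched on both strands. It was present in 3 of the 23 Hox entries, those of Hoxa2, Hoxb1 and 1 of the entries of Hoxd11, and in 8.85% of all promoters. A match is a match of letters only.

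Between HBC and LBC the Hox genes differed little: 1 of 37 was called higher in HBC (Hoxc13), 1 was called lower (Hoxb9) and 35 were not called. Differences are log2 fold changes of intensity + 16, HBC minus LBC, tested with limma over all 19938 genes, and a call needs a Benjamini-Hochberg adjusted p under 0.05 and a fold above 1.5. Over all genes tested, 2.54% were called higher and 1.13% lower, 3.67% in either direction, so 2 Hox genes of 37 are near the background. The log2 fold changes of the Hox genes ran from -0.67 to 0.59 with a median of -0.065, against a median of -0.072 over all genes, and 33 of the 37 lay within 0.3 of zero. A total of 26 Hox genes had negative values, as had 13825 of all 19938 genes. Across Hox genes the arrays correlated at r from 0.988 to 0.998 within a group and from 0.975 to 0.983 between HBC and LBC. Over all genes r ran from 0.996 to 0.999 within and from 0.98 to 0.986 between the groups set by title. LBC replicates 2 and 3 thus correlated more closely with LBC replicate 1 than with any HBC array. Genes are not independent replicates. At an adjusted p under 0.05 with no fold threshold, 4 Hox genes were higher (Hoxc8, Hoxc10, Hoxc12 and Hoxc13) and 3 lower (Hoxb7, Hoxb9 and Hoxc11), against 6.93% and 11.4% of all genes. Without LBC replicates 2 and 3, LBC replicate 1 alone stood for LBC, so the spread within LBC could not be estimated. Hoxc8, Hoxc10, Hoxc12 and Hoxc13 then had log2 fold changes of 0.37, 0.53, 0.56 and 0.70. Hoxb9, Hoxb7 and Hoxc11 had -0.57, -0.29 and -0.29. These sizes do not show that the genes would still pass. The methods' t-test was run on log2(intensity + 16) of all 19938 genes, without the methods' filter (mean above 100 in both groups). By that test with the same adjustment, Hoxb9 alone was under an adjusted p of 0.05 (0.021). The 4 higher HoxC genes had adjusted p from 0.076 for Hoxc13 to 0.16 for Hoxc12 by that test.

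**Figure D2:**
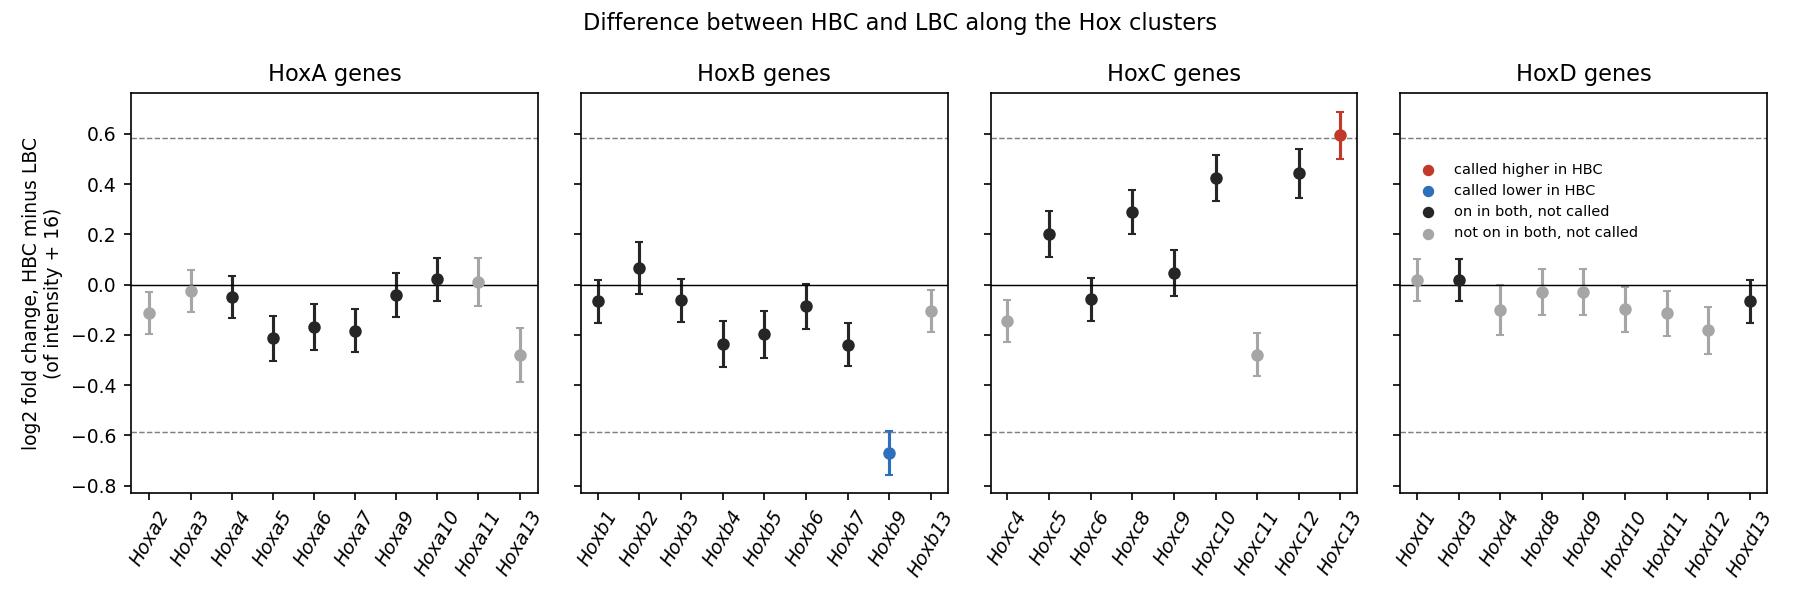
Log2 fold change of intensity + 16, as HBC minus LBC, for 37 Hox genes along their clusters, where bars are limma standard errors (3 arrays in each group) and dashed lines stand at a fold of 1.5. Hoxb9 lies below the lower line and Hoxc13 just above the upper one, while HoxA and HoxD genes stay between -0.28 and 0.021.

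Hoxb9, which helps to pattern the ribs and the mammary gland, was lower in HBC. It read 459, 493 and 437 on the HBC arrays and 695, 761 and 782 on the LBC arrays. Every HBC array lay well below every LBC array. HBC averaged 463 ± 27.9 and LBC 746 ± 45.4 (SD, n = 3 arrays each), so HBC stood at 0.621 of LBC. The log2 fold change was -0.67, with a standard error of 0.087 and, by limma with Benjamini-Hochberg adjustment, an adjusted p of 5.8e-07. Without LBC replicates 2 and 3, whose source names read HBC, the value was -0.57 (limma adjusted p = 0.0017), below the fold threshold, so the call rests on these arrays while the direction does not. Its neighbours in the cluster were not called. Hoxb7 had a log2 fold change of -0.24 (limma adjusted p = 0.047), with all HBC arrays below all LBC arrays, and Hoxb13 one of -0.11 (limma adjusted p = 0.42). The other group 9 genes that were on, Hoxa9 and Hoxc9, had values of -0.041 and 0.046.

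A precursor of miR-196a lies between Hoxb9 and Hoxb13. MicroRNAs of the miR-196 family are encoded in the Hox clusters and are known to repress Hox messages, Hoxb8 and Hoxc8 among them. The mature sequences (RefSeq, GRCm38.p6) are shown since all 3 loci give the same seed (bases 2 to 8, in capitals), and Mir196a-1 in HoxB and Mir196a-2 in HoxC give the same microRNA.
miR-196a-5p: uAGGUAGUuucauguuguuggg
miR-196b-5p: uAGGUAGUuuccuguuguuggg
Mir196a-1 read 88.4, 73.8 and 77.4 on the HBC arrays and 101, 109.9 and 111 on the LBC arrays. All HBC arrays lay below all LBC arrays, as for Hoxb9, but the gene was not called (log2 fold change of -0.36, limma adjusted p = 0.0027; -0.29 and 0.093 without LBC replicates 2 and 3, and an adjusted p of 0.078 by the methods' t-test) and it was on in neither population. Mir196a-2 and Mir196b had log2 fold changes of 0.022 and 0.0059. These clusters read the primary or precursor transcript, and mature microRNA was not measured.

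Hoxc13, a regulator of hair and nail keratins, was higher in HBC. It read 334, 338 and 324 on the HBC arrays and 198, 195 and 256 on the LBC arrays. The groups did not overlap, and LBC replicate 3 lay nearest to HBC. HBC averaged 332 ± 7.59 and LBC 216 ± 34.3 (SD, n = 3 arrays each), 1.54 times as high in HBC. The log2 fold change was 0.59, with a standard error of 0.094 and a limma adjusted p of 1.7e-05. This is just past the threshold of 0.585, and the call was lost without HBC replicate 2 (0.58), LBC replicate 1 (0.54) or LBC replicate 2 (0.53); without LBC replicates 2 and 3 together it held, at 0.70.

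Next to it, Hoxc12 read 560.5, 572 and 551 on the HBC arrays and 375, 365 and 498 on the LBC arrays. Its log2 fold change was 0.44 (95% interval 0.24 to 0.64, limma adjusted p = 0.0012), under the fold threshold. Hoxc10, the gene tied to inguinal and other subcutaneous fat, read 955, 981 and 844 on the HBC arrays and 636, 657 and 771 on the LBC arrays. Its log2 fold change was 0.42 (95% interval 0.24 to 0.61, limma adjusted p = 0.00099). For both genes every HBC array lay above every LBC array, with LBC replicate 3 again the closest.
Hoxc8, known to hold back the brown fat program in white preadipocytes, read 868, 898 and 827 on the HBC arrays and 667, 681 and 770.1 on the LBC arrays, again with no overlap. Its log2 fold change was 0.29 (95% interval 0.11 to 0.47, limma adjusted p = 0.018), and the adjusted p was 0.08, 0.095, 0.063 and 0.11 without HBC replicates 1 or 2 or LBC replicates 1 or 2.

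Hoxc9 and Hoxc11, of the same stretch, did not read higher in HBC beyond their spread. Hoxc9, between Hoxc8 and Hoxc10, read 878, 966 and 824 on the HBC arrays and 791, 820.2 and 979 on the LBC arrays. Its groups overlapped, and the log2 fold change was 0.046 (95% interval -0.14 to 0.24). Hoxc11, dim in both populations at means of 52.9 and 67.6, had a log2 fold change of -0.28 (limma adjusted p = 0.019). Of the other HoxC genes, Hoxc5 had a value of 0.20 and Hoxc6, which is active in thoracic mesoderm, one of -0.059. The median over the 9 HoxC genes was 0.20, against -0.081 for 10 HoxA, -0.11 for 9 HoxB and -0.065 for 9 HoxD genes; medians of clusters are descriptions and were not tested against each other. Counting all 37 genes, HBC arrays lay above all LBC arrays for 4, all of them HoxC, against 10.1% of all genes. HBC arrays lay below all LBC arrays for 9, against 25.1% of all genes: Hoxa5, Hoxa6, Hoxa7, Hoxb3, Hoxb4, Hoxb7, Hoxb9, Hoxc4 and Hoxc11.

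**Figure D3:**
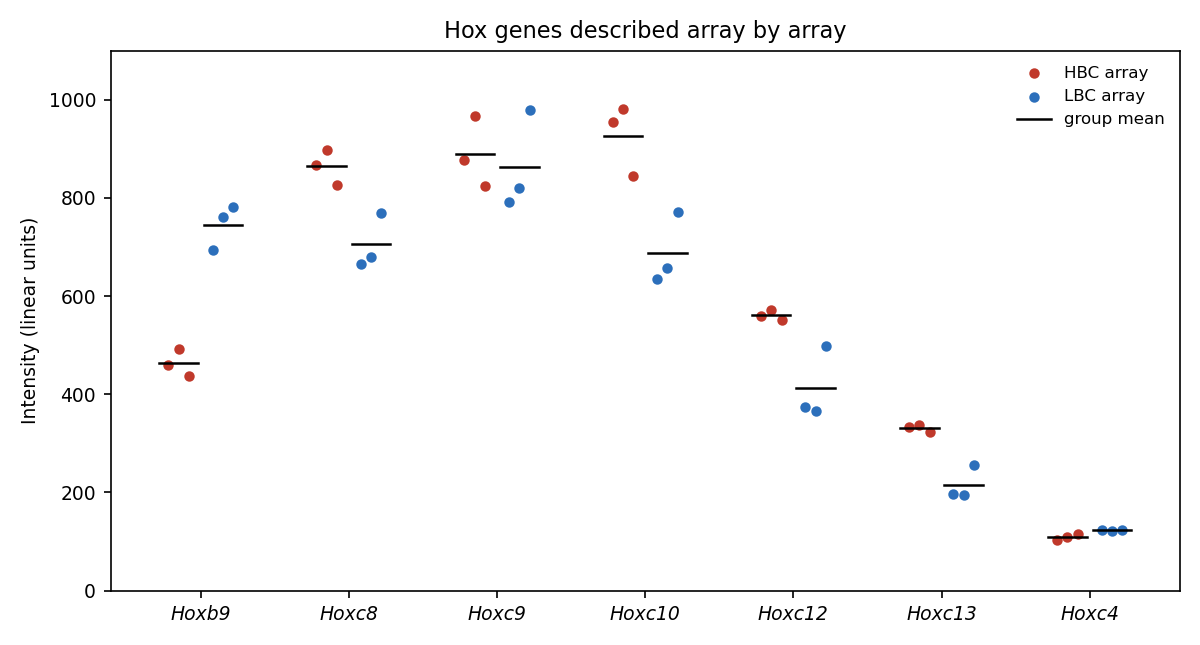
Intensity (linear units) of 7 Hox genes on each array, 3 HBC (red) and 3 LBC (blue), with a black line at each group's mean. HBC arrays lie below LBC for Hoxb9 and Hoxc4, above LBC for Hoxc8, Hoxc10, Hoxc12 and Hoxc13, and overlap them for Hoxc9; LBC replicate 3 is the highest LBC array for each gene.

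None of the 10 HoxA genes was called by limma or by the methods' t-test (run with the same adjustment and fold threshold); 3 reached an unadjusted p under 0.05 in limma, all with lower values in HBC, against 20.4% of all genes lower and 9.51% higher at that p. Hoxa5, a gene of the trunk and lung that is also expressed in fat, read 237, 247 and 242 on the HBC arrays and 256, 276 and 320.2 on the LBC arrays. HBC lay below LBC on every array, and the log2 fold change was -0.21 (limma adjusted p = 0.098). Its neighbours Hoxa6 and Hoxa7 had the same order of arrays, with values of -0.17 and -0.18 (limma adjusted p = 0.21 and 0.14). Hoxa9 and Hoxa10, genes of the lumbar region and the reproductive tract, had log2 fold changes of -0.041 (95% interval -0.22 to 0.14) and 0.021 (95% interval -0.16 to 0.20). Both intervals lie inside the fold threshold. Hoxa13 had the largest value of the cluster, -0.28, with overlapping arrays (97.5, 79.2 and 120.3 in HBC and 140.3, 125 and 104 in LBC).

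None of the 9 HoxD genes was called by either test, and none reached an unadjusted p under 0.05 in limma, with log2 fold changes from -0.18 (Hoxd12) to 0.019 (Hoxd3). Their arrays overlapped between the groups for all 9. Hoxd13 read 286, 293 and 295 on the HBC arrays and 323, 313 and 282 on the LBC arrays, with a log2 fold change of -0.065 (95% interval -0.24 to 0.11). Of the HoxB genes other than Hoxb9 and Hoxb7, values ran from -0.24 for Hoxb4, known for its part in blood stem cells, to 0.066 for Hoxb2, a hindbrain gene.

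Among the TALE cofactors, 1 of 8 measured was called higher in HBC and none lower, against 2.54% and 1.13% of all genes. Meis3 read 200.5, 199.7 and 192 on the HBC arrays and 126, 129 and 122 on the LBC arrays. The groups were far apart next to their spread, HBC being 1.57 times as high by the means (log2 fold change of 0.59 with a standard error of 0.083, limma adjusted p = 2.6e-06); the call was lost without HBC replicate 1 or 2 or LBC replicate 3 (0.58, 0.58 and 0.57), without LBC replicates 2 and 3 together (0.58), and with an offset of 50 (0.49). The related Pknox2, Meis1 and Meis2 had values of 0.51, 0.49 and 0.41 with adjusted p of 2.3e-05, 5.5e-05 and 0.0017 from limma (0.0056, 0.02 and 0.14 by the methods' t-test), under the fold threshold, and all HBC arrays lay above all LBC arrays for each of the 4. The PBX partners did not follow, with values of 0.10 for Pbx2, -0.16 for Pbx3 and -0.21 for Pbx4, and Pknox1 had -0.087. The median of the 8 was 0.26, against -0.072 over all genes.

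None of the 20 Polycomb genes and none of the 12 trithorax genes was called by limma or the methods' t-test. All 32 were on in both populations, as were 57.2% of all genes. At an unadjusted p under 0.05 in limma, 3 Polycomb genes were higher and 7 lower, and 1 trithorax gene was higher and 3 were lower. Of all genes, 9.51% were higher and 20.4% lower at that p. At an adjusted p under 0.05 alone, 6 Polycomb genes were lower in HBC (Mtf2, Eed, Cbx2, Suz12, Cbx7 and Phf19) and none was higher, against 11.4% and 6.93% of all genes. Without LBC replicates 2 and 3, log2 fold changes were -0.39 for Mtf2, -0.30 for Eed, -0.30 for Cbx2 and -0.17 for Suz12. Cbx7 and Phf19 then had -0.29 and -0.24. LBC replicate 1 alone stood for LBC in that fit, so these sizes do not show that the 6 genes would still pass. By the methods' t-test with the same adjustment, Phf19 alone of these was under that adjusted p (0.047). Mtf2, which brings Polycomb complex PRC2 to CpG islands, had the largest value, -0.53 (limma adjusted p = 9.3e-05), and read 514, 515 and 480.4 in HBC and 666, 684 and 862 in LBC. Without LBC replicate 1 it was called, at -0.59. With all arrays, Eed and Suz12, core subunits of PRC2, had -0.39 and -0.31, whereas Ezh2, its methyltransferase, had -0.25. Of the trithorax genes, Dpy30 had the largest value at -0.32 (limma adjusted p = 0.012), and -0.20 without LBC replicates 2 and 3. Kmt2a, the methyltransferase known for keeping Hox genes active, had a value of -0.046.

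Of 39 other positional transcription factors of limb, trunk and fat, 2 were higher in HBC, 1 was lower and 36 were not called. Of all genes tested, 2.54% were called higher and 1.13% lower. Tbx3, a T-box factor of limb and mammary gland, read 302, 298 and 303 on the HBC arrays and 559, 555 and 675 on the LBC arrays. HBC was about 0.505 of LBC by the ratio of means, with a log2 fold change of -0.94 (limma adjusted p = 1.2e-09). Prrx2, a homeobox gene of limb mesenchyme, read 413, 408 and 368 in HBC and 194, 193 and 240.0 in LBC, and rose by 0.88 on the log2 scale (limma adjusted p = 9.7e-09). Tbx18, a T-box factor of mural and other mesenchymal progenitors, rose by 0.75 (limma adjusted p = 4.9e-08). All 3 had groups that did not overlap, and all 3 kept their calls when any 1 array was left out. Tbx15, a marker of subcutaneous fat precursors, stood at 1779 in HBC and 1777 in LBC, with a log2 fold change of 0.0071. Shox2 and Pitx1, both limb genes, had values of 0.054 and 0.081.

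None of the 16 neighbours of the clusters measured, the flanking genes and noncoding RNAs, was called by either test. At an unadjusted p under 0.05 in limma, 1 was higher and 3 were lower, against 9.51% and 20.4% of all genes. Mir196a-1 had the largest value of these neighbours. Hottip, a noncoding RNA at the HoxA end, was on in neither population, at 68.0 in HBC and 59.2 in LBC. Of 7 caudal-type and ParaHox genes with Gdf11, a ligand that promotes the later trunk program, none was called by either test. In limma 2 were lower and none higher at an unadjusted p under 0.05, against 20.4% and 9.51% of all genes. Gdf11 had the largest value, -0.36 (limma adjusted p = 0.0053). Its value was -0.22 (limma adjusted p = 0.16) without LBC replicates 2 and 3, and the methods' t-test gave an adjusted p of 0.17.

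**Figure D4:**
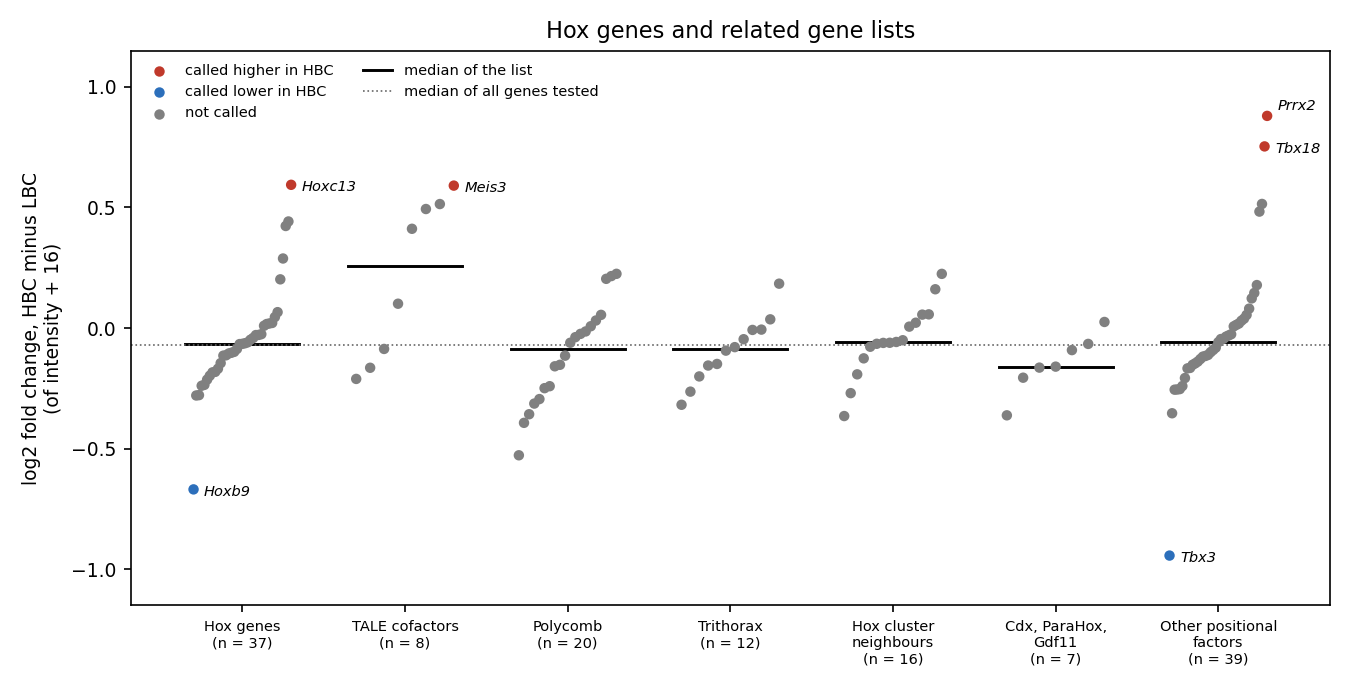
Log2 fold change between HBC and LBC (HBC minus LBC) for each Hox gene and the genes of 6 related lists, with black lines at list medians and a dotted line at the median of all genes tested (-0.072). Red points were called higher in HBC, blue points lower: Hoxc13 and Hoxb9 among Hox genes, Meis3 among TALE cofactors, and Prrx2, Tbx18 and Tbx3 among positional factors.

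Most stromal markers were on in both populations, and so were some markers of other cell types. Of all genes tested, 57.2% were on in both, 2.54% were called higher in HBC and 1.13% lower. Of 11 stromal and preadipocyte markers, 10 were on in both, Lum was dim, Col3a1 was called higher in HBC (0.80) and Dcn lower (-0.78); their summed intensity lay between 32964 and 37126 on the HBC arrays and between 30147 and 34970 on the LBC arrays. Of 32 markers of macrophages, endothelium, adipocytes, epithelium, muscle and mesothelium, 10 were on in both, 1 was called higher in HBC (Lpl, 1.84) and 1 lower (Msln, -1.20), with 30 not called. None of 5 endothelial markers was on. The muscle markers on in both were Acta1 (mean 745 in HBC and 755 in LBC) and Des (243 and 234). Krt8 (143 and 165) and Krt18 of epithelium, and Krt19 (461 and 353) and Upk3b of mesothelium, were also on in both. Summed over the 7 macrophage markers, of which Cd68 alone was on in both, intensity lay between 552 and 563 on the HBC arrays and between 637 and 667 on the LBC arrays. Over the 6 adipocyte markers it lay between 4538 and 4674 in HBC and between 2434 and 2913 in LBC, and the difference lay in Lpl (mean 1961 in HBC and 537 in LBC) and Fabp4 (2363 and 1774), since Plin1 stood at 136 and 137 and Adipoq, Lep and Cidec were dim. Over the 4 mesothelial markers it lay between 731 and 748 and between 725 and 804. No marker was at 0, and their part in the Hox differences was not tested. In RNA from a whole population, fewer cells that express a gene and less RNA of it per cell cannot be told apart.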

How the data were processed

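Linear intensities of 35556 transcript clusters were used as the authors deposited them; the submitters' processing notes name Affymetrix Expression Console, while its version, summary method and scaling of the arrays were not given in the sources used here. Array medians ran from 122 to 135. Annotation of an earlier array version than the methods name fitted the identifiers, and gave 1 symbol to 21789 clusters; 1621 with several symbols and 12146 with none were left out. The cluster with the highest mean intensity stood for a gene (19938 genes, 999 with several clusters). HBC and LBC were compared on log2(intensity + 16) with limma 3.58.1 in R 4.3.3, with no replicate block and Benjamini-Hochberg adjustment over all genes. The variance prior had 24.9 degrees of freedom against 4 residual ones, so the size of very small p-values rests largely on the prior. In a simulated HBC and LBC comparison over 19938 genes, changes were given only to genes with a mean log2 value above that of intensity 100. Calls were made for 38% of genes given a 1.5-fold change, for 98% at 2-fold and for 2 of 19738 left unchanged. A 1.5-fold change lies at the fold threshold itself, and 76% of those genes had a limma adjusted p under 0.05. These rates do not cover dim genes.
The members, lists and tests were chosen with earlier results of these data known. Values on every array are given for Hox genes that were called, that were on in 1 population only, or that had the 3 largest changes among genes not called and on in both; the called genes of other lists, or the gene with the largest change, are also named. Hoxa5, Hoxa13, Hoxc9, Hoxd13 and the other genes named were picked after their values were seen, for their known roles or place in a cluster. Alternatives were other scalings, offsets, filters, variance priors, clusters and thresholds, the t-test named in the methods, a replicate block, and leaving out arrays. The number of arrays limits the precision.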

Additional observations from a re-analysis of the deposited data

How the results depend on the processing

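The number of Hox genes on in both populations, 23, ran from 16 with the 99th percentile of olfactory receptor genes to 27 with the 90th, was 26 with a mean intensity above 100 in both groups, and lay between 23 and 24 when an array was left out. The count of 1 Hox gene called higher became 0 with an offset of 50, 0 with the methods' t-test after Benjamini-Hochberg adjustment (Hoxc13, adjusted p = 0.076), 0 at a fold above 2 and 4 without a fold threshold; leaving out arrays it ran from 0 to 1. The count of 1 called lower became 0 at a fold above 2 and 3 without a fold threshold. It was 1 without any single array and 0 without LBC replicates 2 and 3 together. Quantile, cyclic loess and median scaling, both intensity filters, the variance priors, the other choices of cluster and the fit over every cluster left both counts at 1. Hoxb9 ran from -0.72 to -0.57 over all settings (highest adjusted p = 0.021) and Hoxc13 from 0.53 to 0.71 (highest adjusted p = 0.076). Hoxc12, Hoxc10 and Hoxc8 ran from 0.36 to 0.58, from 0.37 to 0.53 and from 0.25 to 0.37, with highest adjusted p of 0.16, 0.11 and 0.11, each from the methods' t-test. Replicate numbers did not pair the arrays, since deviations of arrays with the same number correlated at -0.096, -0.24 and -0.50, and with the replicate block the counts stayed at 1 and 1 for Hox genes. Over the other lists together, run under the same settings after seeing the data, the count of 3 called higher became 5 with cyclic loess, 2 with an offset of 50 (Meis3, 0.49), 8 without a fold threshold and 0 at a fold above 2, and ran from 2 to 3 when arrays were left out. The count of 1 called lower became 15 without a fold threshold and 0 at a fold above 2, and ran from 1 to 2. With the replicate block these were 3 and 1. Of the values of 14 named genes under these settings, 17 lost a call, 8 gained one and none turned. Where a setting does not itself move the threshold or drop arrays, the cause was not tested. Small log2 fold changes near the median of all genes, which moved from -0.072 to -3.3e-05 with cyclic loess, have no firm sign.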
